A study of Mus musculus with 35 samples.

Results

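Cervical spinal cord of SCA7 mice was compared between 9 weeks of age and postnatal day 8 (P8) in 7 of the 35 RNA-seq libraries of the study. SCA7 266Q/5Q mice carry a knocked-in expansion of the CAG repeat in the ataxin-7 gene on 1 allele and a normal repeat on the other, and they model the infantile form of spinocerebellar ataxia type 7. The study took segments C3 to C5 of the cervical cord, which hold the phrenic motor neurons, from males and females, and described P8 mice as neonates, 5-week mice as presymptomatic and 9-week mice as preterminal. The libraries were chosen by their titles: 5 from 9-week SCA7 mice and 2 from P8 SCA7 mice, each with 1 mouse per library. Used beside them were 2 libraries from 5-week SCA7 cervical cord and the SCA7 medulla (5 at 9 weeks and 2 at P8). Of wild-type (WT) littermates on C57Bl/6J background the cervical cord (5 at 9 weeks and 1 at P8) was used, and in 1 alternative setting the medulla (2 at P8). The comparison asks which transcripts of the cord rise or fall between the neonatal and the preterminal age in mice that carry the expanded allele throughout, so that maturation and disease cannot be told apart within it.

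Between the first postnatal weeks and adulthood the rodent cord finishes axon growth, trades growth tubulins and growth cone proteins for those of stable axons, and inserts the sodium and potassium channels of mature nodes. Oligodendrocyte precursors stop dividing, pass through a short committed stage, and then make myelin, a membrane rich in cholesterol that the cell largely synthesises itself. Astrocytes take up glutamate, GABA and glycine and change their transporters over the same weeks.

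Depth limited the comparison. Both P8 libraries and 9-week libraries 1, 2 and 3 held between 105968 and 323231 counts and are called shallow here, and 9-week libraries 4 and 5 held 29361295 and 34672125 counts and are called deep. A gene without a count in a shallow library may reach between 9.28 and 28.3 CPM (its counts scaled to a common library size) there, a limit that covers counting error only. The 3 shallow 9-week libraries were therefore set against the P8 libraries apart, over genes whose counts averaged at least 10 (the equal-depth comparison), and all 7 libraries were compared over genes with at least 10 counts in 1 library (the all-library comparison). Deep and shallow libraries also differed in which genes were counted. Of 1208 genes at 100 CPM or more in every shallow 9-week library, 30 were over 10-fold lower in both deep ones, among them 6 encoded by the mitochondrial genome, so mitochondrial genes are compared among shallow libraries alone. Values below are normalized CPM, and the 5 values of the 9-week group are given in the order of libraries 1 to 5, shallow ones first.

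Genes that mark position along the body axis went against the tissue labels of the P8 libraries. *Hoxc8*, a homeobox gene of the spinal cord that lies at chr15:102990539-102994275 of GRCm38.p6, was at 0 and 0 CPM in the P8 libraries labelled cervical and at 171 and 152 CPM in the P8 libraries labelled medulla. At 9 weeks it was at 90.2, 99.1, 24.4, 119.8 and 108 CPM in the cervical libraries and at 0 in each of the 5 medulla libraries. *Hoxc6*, *Hoxa7* and *Hoxd8* were likewise at 0 in both P8 libraries labelled cervical, and *Hoxc6* was at 46.3 and 47.6 CPM in those labelled medulla. *Ttr*, the transthyretin gene of the choroid plexus, was at 708 and 6063 CPM in the P8 libraries labelled cervical, at 0.531 and 9.52 CPM in those labelled medulla, and at 0, 0, 6.09, 0.535 and 0.255 CPM in 9-week cervical cord. The samples are kept under their labels, and whether the labels were exchanged was not tested. Because a change with age and a difference of tissue cannot be told apart in the labelled comparison, the lists and many of the genes are given also with the P8 libraries labelled medulla in place of those labelled cervical (with depth as a block, since 1 of them is deep), where they held enough counts there, and the main lists with shallow 9-week medulla libraries in place of the cervical ones. Of those 9-week medulla libraries replicate 2 stands apart, with 60.7% of its counts from mitochondrial transcripts against 14.4% and 15.6% in replicates 1 and 3, so values are given with all 3 and with replicates 1 and 3 alone. These comparisons were added after the mismatch and the share had been seen.

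**Figure D1:**
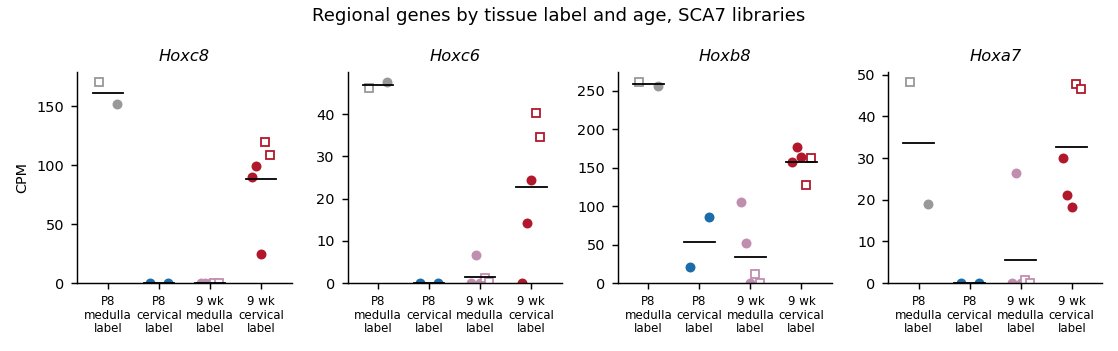
Normalized CPM (vertical axis) of *Hoxc8*, *Hoxc6*, *Hoxb8* and *Hoxa7* in SCA7 libraries, by age and tissue label (horizontal axis); filled circles are shallow libraries, open squares deep libraries, and bars group means. The P8 libraries labelled cervical sit at 0 for *Hoxc8*, *Hoxc6* and *Hoxa7*, while those labelled medulla lie above every 9-week cervical library in *Hoxc8*, *Hoxc6* and *Hoxb8*.

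In the equal-depth comparison 952 of 3645 genes had an adjusted p under 0.05 by the quasi-likelihood test of edgeR, a share of 26.1%. Of these 442 were higher at 9 weeks (12.1% of the genes tested) and 510 were lower (14.0%), and the median log2 fold change over all genes tested was 0.01. In the all-library comparison 1139 of 18613 genes passed (6.12%), with 492 higher (2.64%), 647 lower (3.48%) and a median of 0.40. Of the 952 genes, 520 also passed in the all-library comparison in the same direction. With the P8 libraries labelled medulla 1393 of 2597 genes passed (53.6%; 24.8% higher and 28.8% lower), and of the 711 of the 952 genes that could be tested there 612 passed in the same direction, 346 higher and 266 lower. Opposite calls were made for 4 genes, *Hoxb8*, *Mag*, *Nefm* and *Pllp*, which are named for that reason. With the 9-week libraries labelled medulla 136 of 3561 genes passed (3.82%; 1.24% higher and 2.58% lower), and 132 of the 905 genes tested there kept their call, with no opposite call and the same sign in 896 (99.0%). Without replicate 2 of these medulla libraries 783 of 3660 genes passed (21.4%), 379 as higher (10.4%) and 404 as lower, and 584 of 896 genes kept their call, 255 higher and 329 lower, again with no opposite call. Of 670 genes that could be tested both against the P8 libraries labelled medulla and with the 3 shallow 9-week medulla libraries, 94 passed in the same direction both times, 41 higher and 53 lower. Without replicate 2 this was so for 412 of 661 genes, 228 higher and 184 lower. These counts describe the 2 replacements of libraries alone. The comparisons share libraries, so agreement in direction is in part built in and is no independent check. The all-library comparison holds every library of the equal-depth one, and each replacement keeps libraries of the other age. The libraries labelled medulla also come from the same mice as those labelled cervical.

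Genes of immature neurons and growing axons were lower at 9 weeks. Of 32 listed genes 30 had enough counts for the equal-depth comparison, and 25 fell, none rose, and 5 did not pass, with a median log2 fold change of -1.99 (14.0% of all genes tested fell). In the all-library comparison 23 of 32 fell and none rose (median -1.95). *Tubb2b*, a beta tubulin of newborn neurons at chr13:34127008-34130354, was at 1106 and 814 CPM at P8 and 37.6, 42.5, 54.8, 68.0 and 63.8 CPM at 9 weeks. All 5 libraries lay below both P8 libraries, a 20.9-fold fall at equal depth (log2 fold change -4.39, SE 0.27, adjusted p = 1.29e-14) and a log2 fold change of -4.07 over all libraries (adjusted p = 2.48e-07). The P8 libraries labelled medulla stood at 743 and 799 CPM, and the log2 fold change against them was -3.80 (adjusted p = 2.82e-15). In whole tissue fewer cells of a type and less RNA per cell cannot be told apart.

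*Nnat*, which encodes neuronatin, an imprinted membrane protein of developing neurons, lies at chr2:157560078-157562525 and went from 655 and 462 CPM at P8 to 15.0, 7.08, 18.3, 23.2 and 27.8 CPM (log2 fold change -5.30, SE 0.36, adjusted p = 9.46e-14). *Tuba1a*, the main alpha tubulin of migrating neurons and growing axons, went from 2368 and 1909 CPM to 248, 241, 268, 354 and 313 CPM (log2 fold change -3.08, SE 0.22, adjusted p = 3.02e-13). Neither gene had a 9-week library that overlapped a P8 library. *Marcks*, a substrate of protein kinase C that binds actin in growth cones, was at 593 and 595 CPM at P8 and at 37.6, 42.5, 36.6, 101 and 119.7 CPM at 9 weeks (log2 fold change -3.90, SE 0.29, adjusted p = 9.46e-13), with deep 9-week libraries higher than shallow ones. *Nrep*, known from regenerating neurons, went from 309.7 and 516 CPM to 22.6, 14.2, 42.6, 37.5 and 40.4 CPM (log2 fold change -3.80, SE 0.38, adjusted p = 1.12e-09). Against the P8 libraries labelled medulla the log2 fold changes were -4.13 for *Nnat*, -2.55 for *Tuba1a*, -3.35 for *Marcks* and -3.54 for *Nrep*. Over all 7 libraries they were -4.66, -2.90, -2.92 and -3.56, each with an adjusted p under 0.05.

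The tubulins share long stretches of sequence, so reads of near-identical copies may have been divided unequally by the counting. *Tubb5* (-1.94, SE 0.21) and *Tubb3* (-1.11, SE 0.21) fell less than *Tubb2b* on the log2 scale. *Stmn1*, which encodes the microtubule-destabilising protein stathmin, went from 354 and 352 CPM at P8 to 165, 184, 183, 73.9 and 75.2 CPM at 9 weeks (log2 fold change -0.97, SE 0.24, adjusted p = 0.00212). Its P8 libraries labelled medulla, at 99.0 and 181 CPM, overlapped the 9-week range. Over the group, 21 of 23 members tested fell and none rose with the P8 libraries labelled medulla (median -1.51), and 16 of 29 fell with the 9-week libraries labelled medulla (median -1.69), or 26 of 31 without their replicate 2 (median -1.74).

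**Figure D2:**
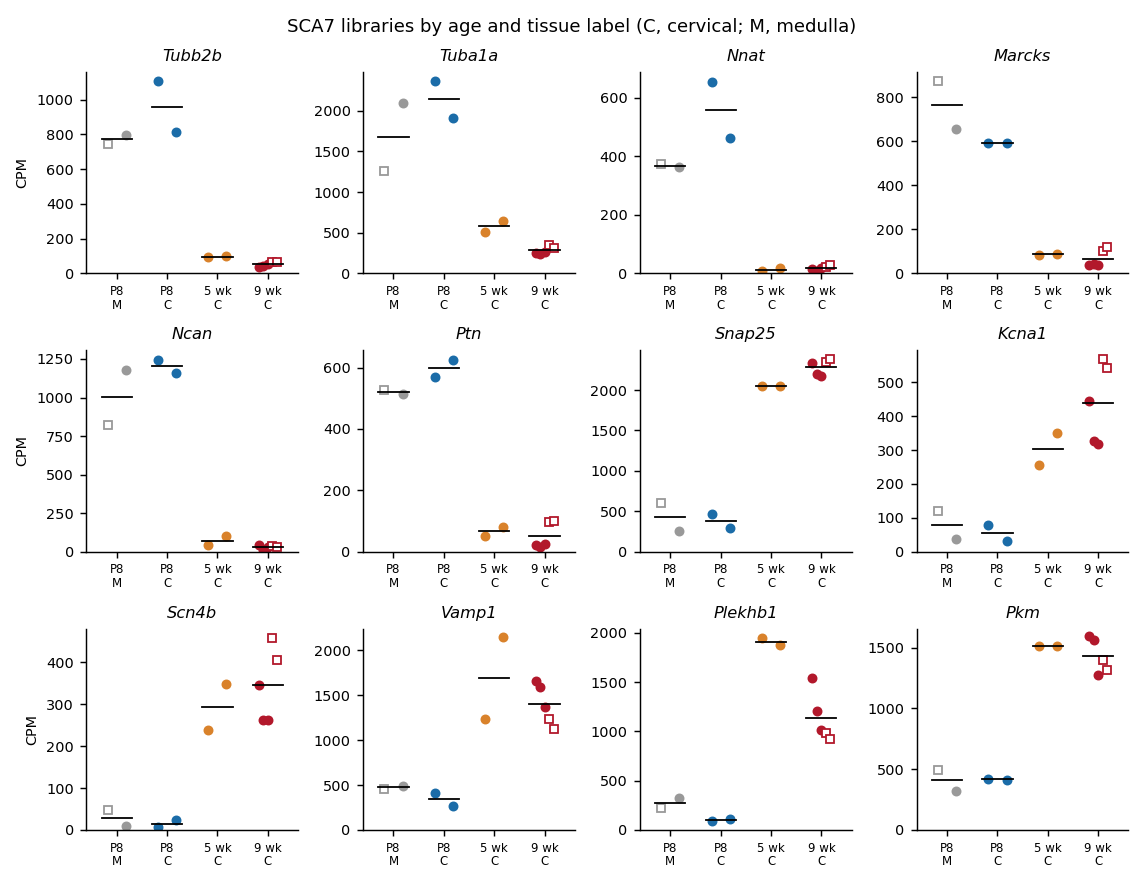
Normalized CPM (vertical axis) of 12 genes in SCA7 libraries by age and tissue label (horizontal axis; C, labelled cervical; M, labelled medulla); filled circles are shallow libraries, open squares deep libraries, and bars group means. The first 6 panels show genes lower at 9 weeks than in either P8 pair and the last 6 genes higher than in either P8 pair.

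Matrix genes were next. Of 22 matrix and collagen genes 10 were tested, 7 fell and 2 rose (median -1.97), beside 14.0% and 12.1% of all genes. Over all libraries 11 of 22 fell and 1 rose (median -1.62). Against the P8 libraries labelled medulla 5 of 7 fell and 1 rose (median -1.65), beside 28.8% and 24.8% of all genes. *Ncan*, which encodes neurocan, a chondroitin sulfate proteoglycan of the perinatal nervous system at chr8:70093085-70120863, was at 1245 and 1158 CPM at P8 and 45.1, 14.2, 30.5, 34.0 and 32.8 CPM at 9 weeks (log2 fold change -5.31, SE 0.30, adjusted p = 9.66e-16). The P8 libraries labelled medulla, at 825 and 1180.0 CPM, lay as far above every 9-week library, and over all 7 libraries the log2 fold change was -5.24 (adjusted p = 2.68e-08). *Ptprz1*, a receptor phosphatase of glial precursors, went from 425 and 250.3 CPM to 52.6, 35.4, 60.9, 109.7 and 115 CPM (log2 fold change -2.79, SE 0.31, adjusted p = 9.62e-09). *Ptn*, its ligand pleiotrophin, was at 569 and 626 CPM at P8 and 22.6, 14.2, 24.4, 98.3 and 99.2 CPM at 9 weeks (log2 fold change -4.80, SE 0.33, adjusted p = 1.61e-13). The deep 9-week libraries of *Ptn* stood above its 5-week libraries, at 51.4 and 81.5 CPM, and the shallow ones below them, so that over all 7 libraries the log2 fold change was -3.18 (adjusted p = 3.79e-04).

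The collagen gene *Col4a1*, of the basement membrane, went from 165 and 227 CPM at P8 to 22.6, 42.5, 24.4, 39.5 and 39.2 CPM at 9 weeks (log2 fold change -2.61, SE 0.39, adjusted p = 3.66e-06), and the fibrillar collagen gene *Col1a2* from 118 and 93.9 CPM to 7.52, 21.2, 42.6, 35.2 and 34.2 CPM (log2 fold change -2.07, SE 0.46, adjusted p = 8.91e-04). *Nid1*, which encodes nidogen of the same membrane, was at 124 and 250.3 CPM and 15.0, 0, 12.2, 14.4 and 13.3 CPM (log2 fold change -4.09, SE 0.57, adjusted p = 9.65e-07). *Sparc*, a matrix glycoprotein made by astrocytes and endothelial cells, moved the other way, from 675 and 539.8 CPM to 1655, 1557, 1078, 913 and 944 CPM (log2 fold change 1.22, SE 0.23, adjusted p = 9.45e-05), though against the P8 libraries labelled medulla, at 612 and 1094 CPM, it did not pass (0.32, adjusted p = 0.112). The other member that rose was *Hapln4*, a link protein of perineuronal nets (log2 fold change 1.71, SE 0.39, adjusted p = 0.00101). The pericyte gene *Rgs5* went from 174 and 172 CPM to 60.2, 14.2, 79.2, 49.1 and 46.1 CPM (log2 fold change -1.69, SE 0.37, adjusted p = 6.67e-04), and the summed level of 13 endothelial and pericyte genes went from between 917 and 1040.4 CPM at P8 to between 509.6 and 693 CPM at 9 weeks. Of 13 meningeal fibroblast genes 4 were tested, 3 fell and 1 rose, and with the other P8 pair 2 of 3 fell and 1 rose. The part of these cells in the matrix result was not tested.

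Of 18 genes of oligodendrocyte precursors and their committed stage 8 were tested, 4 fell and 1 rose (median -0.99). Of all genes 14.0% fell and 12.1% rose. The counts were the same over all 18 in the all-library comparison (median -0.57). With the P8 libraries labelled medulla 3 of 4 fell and 1 rose (median -1.12), beside 28.8% and 24.8% of all genes. *Gpr17*, a receptor of committed precursors that is lost when they mature, lies at chr18:31942999-31949890 and was at 268 and 250.3 CPM at P8, 77.0 and 87.3 CPM at 5 weeks and 0, 14.2, 0, 11.4 and 10.1 CPM at 9 weeks. With 2 counts in the shallow 9-week libraries, its ratio of 9 weeks over P8 was 0.0173 (95% counting interval 0.00207 to 0.0639). *Pdgfra*, the growth factor receptor of dividing precursors, went from 109 and 172 CPM to 30.1, 7.08, 18.3, 41.1 and 41.8 CPM (log2 fold change -2.77, SE 0.49, adjusted p = 4.58e-05), and the kinase gene *Fyn* from 201 and 203 CPM to 52.6, 106, 42.6, 95.4 and 110.4 CPM (log2 fold change -1.57, SE 0.33, adjusted p = 4.15e-04). The member that rose was *Bcas1*, which marks cells beginning to myelinate and remains in mature oligodendrocytes: it was at 139 and 235 CPM at P8 and 669, 559, 524, 677 and 694 CPM at 9 weeks (log2 fold change 1.77, SE 0.26, adjusted p = 2.13e-06). *Fabp7*, the fatty acid binding protein of radial glia and immature astrocytes, was at 380.5 and 422 CPM and 7.52, 0, 12.2, 17.4 and 15.5 CPM, a ratio of 0.0175 (95% counting interval 0.00357 to 0.0518). *Mdga1*, a synaptic adhesion protein of developing neurons, had a ratio of 0.0394 (95% counting interval 0.00466 to 0.15), and *Erc1*, of the presynaptic active zone, fell by 13.1-fold (log2 fold change -3.72, SE 0.55, adjusted p = 2.70e-06).

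Genes of myelin did not move together, and the direction of some depended on which P8 libraries were used. In the equal-depth comparison 16 of 22 genes were tested, 10 rose and 1 fell (median 1.20), beside 12.1% and 14.0% of all genes. The counts were the same among all 22 over all libraries (median 1.27). Against the P8 libraries labelled medulla 5 rose and 6 fell (median -0.27), beside 24.8% and 28.8% of all genes. With the 3 shallow 9-week medulla libraries in place of the cervical ones 4 of 15 rose and 1 fell (median 0.90). With their replicates 1 and 3 alone 6 of 14 rose and 2 fell (median 0.59). The 5 genes that rose under both choices of P8 libraries were *Plekhb1*, *Hapln2*, *Sept4*, *Trf* and *Ermn*. The last of these, an actin regulator of mature oligodendrocytes, had log2 fold changes of 2.08 and 0.93. *Plekhb1*, a pleckstrin homology protein of oligodendrocytes at chr7:100643896-100662394, was at 91.4 and 109.5 CPM at P8 and 1542, 1203, 1017, 984 and 928 CPM at 9 weeks (log2 fold change 3.70, SE 0.28, adjusted p = 1.49e-12). Its P8 libraries labelled medulla stood at 218 and 324 CPM, below every 9-week library (1.89, adjusted p = 2.14e-08). *Hapln2*, the link protein of the node of Ranvier, went from 11.8 and 0 CPM to 226, 169.9, 128, 241 and 204 CPM (log2 fold change 4.27, SE 0.52, adjusted p = 6.78e-08), on 4 counts at P8. *Sept4*, a septin that supports compact myelin, went from 127 and 93.9 CPM to 737, 587, 1017, 454 and 419.5 CPM (log2 fold change 2.79, SE 0.27, adjusted p = 4.23e-10). *Trf*, transferrin, the iron carrier made by oligodendrocytes, was at 97.3 and 102 CPM at P8, 405 and 362 CPM in the P8 libraries labelled medulla and 699, 531, 518, 890.2 and 666 CPM at 9 weeks (log2 fold change 2.58, SE 0.26, adjusted p = 1.73e-09).

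*Mbp*, myelin basic protein, differed between shallow and deep 9-week libraries, with 28608, 24891, 15649.7, 9020.4 and 9856 CPM against 9090.1 and 8089 CPM at P8 (log2 fold change 1.42, SE 0.24, adjusted p = 2.42e-05). *Mag*, the adhesion protein of the innermost myelin layer, was at 307 and 305 CPM in the P8 libraries labelled cervical, 738 and 923 CPM in those labelled medulla and 534, 509.6, 530.0, 617 and 560.2 CPM at 9 weeks. It was therefore higher at 9 weeks by the first pair (log2 fold change 0.79, SE 0.22, adjusted p = 0.00553) and lower by the second (-0.69, adjusted p = 2.50e-04). *Mobp* and *Mal*, 2 further proteins of compact myelin, rose by the first pair (1.31 and 1.78 on the log2 scale) and did not pass by the second (-0.39 and -0.10).

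*Ugt8a*, the enzyme that makes galactocerebroside for myelin, was the 1 tested myelin gene that fell by the cervical-labelled pair. It was at 118 and 179.9 CPM at P8, 441 and 371 CPM in the P8 libraries labelled medulla, 154 and 157 CPM at 5 weeks and 30.1, 14.2, 36.6, 65.2 and 50.3 CPM at 9 weeks (log2 fold change -2.29, SE 0.43, adjusted p = 1.12e-04). Every 9-week SCA7 library lay below every P8 and 5-week SCA7 library, and the WT libraries at 9 weeks were at 234 ± 89.9 CPM (SD, n = 5). It fell also with either replacement of libraries (-3.21, adjusted p = 2.86e-13, with the P8 libraries labelled medulla, and -3.45, adjusted p = 0.0168, with the 9-week libraries labelled medulla, or -3.03, adjusted p = 2.02e-04, without their replicate 2).

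Of 21 cholesterol synthesis genes 14 were tested, 5 fell and 1 rose (median -0.56), beside 14.0% and 12.1% of all genes. Over all libraries 4 of 21 fell and none rose (median -0.73). With the P8 libraries labelled medulla 8 of 10 fell and none rose (median -1.51), beside 28.8% and 24.8% of all genes. With the 3 shallow 9-week medulla libraries 1 of 12 fell and none rose (median -0.97). With their replicates 1 and 3 alone 4 of 13 fell and none rose (median -0.86). *Hmgcs1*, which makes the precursor of mevalonate, was at 589.9 and 469 CPM at P8 and 158, 177, 128, 222 and 249.6 CPM at 9 weeks (log2 fold change -1.79, SE 0.23, adjusted p = 2.58e-07). *Cyp51*, the lanosterol demethylase, went from 177 and 164 CPM to 60.2, 63.7, 24.4, 64.1 and 64.8 CPM (log2 fold change -1.80, SE 0.35, adjusted p = 1.99e-04). *Scd2*, a desaturase of the developing brain, went from 2932 and 2245 CPM to 1843, 1529, 1224, 1644 and 1601 CPM (log2 fold change -0.76, SE 0.21, adjusted p = 0.00727), while *Scd1*, its relative in adult tissue, was at 336 and 274 CPM and 436, 361, 268, 394 and 395 CPM and did not pass (log2 fold change 0.19, SE 0.23, adjusted p = 0.594). The member that rose was *Insig1*, a feedback inhibitor of the pathway (log2 fold change 0.86, SE 0.31, adjusted p = 0.0384). In *Hmgcs1* and *Cyp51* no 9-week library overlapped a P8 library of either label, and over all 7 libraries their log2 fold changes were -1.47 (adjusted p = 0.00227) and -1.58 (adjusted p = 0.00773).

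Because these genes share sterol-responsive control in other tissues, the 250 bases upstream of the start of *Hmgcs1* and *Cyp51* are shown, the 2 members with the lowest log2 fold change that could be matched. They were read from a RefSeq table of GRCm38.p6 promoters in which 6 of the 14 tested members were found. Capitals mark 2 motifs that were searched on both strands: TCACNCCAC, a sterol regulatory element, and CCAAT, the box bound by NF-Y, which reads ATTGG when it lies on the other strand. The motifs do not overlap in these windows. The *Hmgcs1* window (chr13:119690101-119690350, plus strand) holds TCACNCCAC 1 time and CCAAT 3 times. The *Cyp51* window (chr5:4104698-4104947, minus strand) holds CCAAT 1 time and lacks TCACNCCAC. The windows of the other matched members, *Insig1*, *Msmo1*, *Lss* and *Idi1*, also lack TCACNCCAC and hold CCAAT 1, 3, 1 and 2 times. Among 32851 windows of the same length TCACNCCAC is found in 1.05% and CCAAT in 33.8%, and a match describes the letters alone.
Hmgcs1: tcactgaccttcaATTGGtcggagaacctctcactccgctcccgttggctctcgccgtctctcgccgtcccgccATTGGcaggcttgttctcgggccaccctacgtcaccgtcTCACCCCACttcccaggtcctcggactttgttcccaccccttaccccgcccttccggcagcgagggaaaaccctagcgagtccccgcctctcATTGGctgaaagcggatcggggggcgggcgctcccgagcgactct
Cyp51: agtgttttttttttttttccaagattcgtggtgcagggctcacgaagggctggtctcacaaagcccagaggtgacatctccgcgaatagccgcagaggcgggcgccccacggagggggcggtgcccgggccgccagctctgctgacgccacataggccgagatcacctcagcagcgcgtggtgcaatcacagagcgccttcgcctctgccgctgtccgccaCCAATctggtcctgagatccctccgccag

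**Figure D3:**
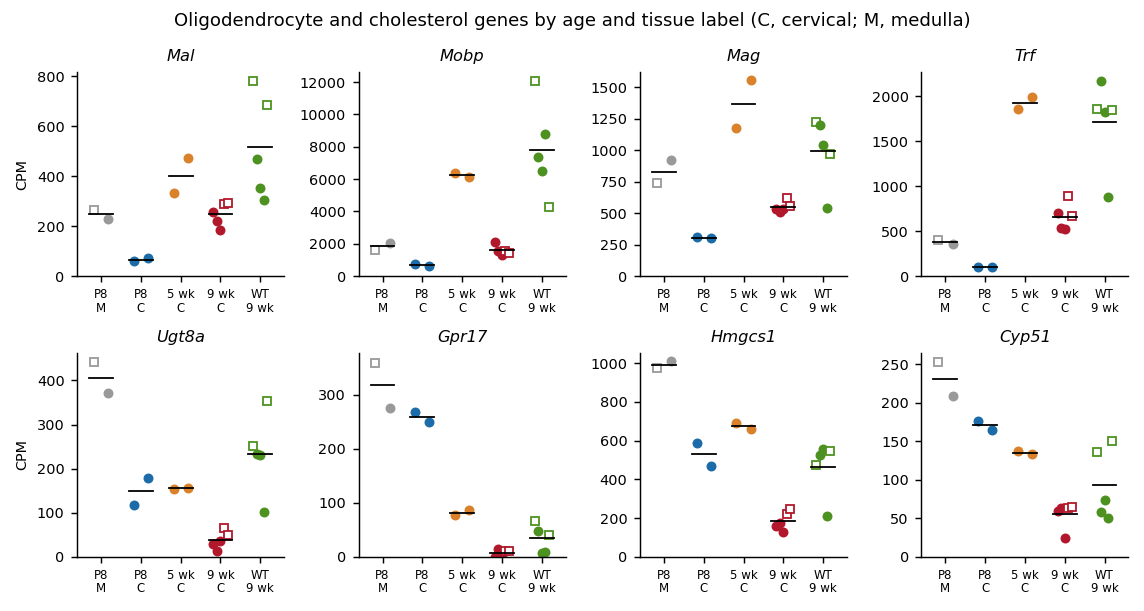
Normalized CPM (vertical axis) of 8 genes of oligodendrocytes and cholesterol synthesis by age and tissue label (horizontal axis; C, labelled cervical; M, labelled medulla; the last group is WT cervical cord at 9 weeks, all others SCA7); filled circles are shallow libraries, open squares deep libraries, and bars group means. Among SCA7 libraries *Mal*, *Mobp*, *Mag* and *Trf* are highest at 5 weeks, and *Ugt8a*, *Gpr17*, *Hmgcs1* and *Cyp51* are lowest at 9 weeks.

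The 5-week libraries placed these changes in time by the P8 libraries labelled cervical alone. The change to 5 weeks was not tested against the P8 libraries labelled medulla. Against P8, 801 of 3394 genes passed at 5 weeks (23.6%), 396 higher (11.7%) and 405 lower (11.9%). Against 5 weeks, 101 passed at 9 weeks (2.98%), 28 higher (0.825%) and 73 lower (2.15%). The split depends on scaling. Mitochondrial transcripts made up 21.0% and 32.3% of the counts at 5 weeks and between 11.7% and 16.1% in the shallow P8 and 9-week libraries of the cord, and their part in the split was not tested. With library totals in place of TMM factors 1184 genes passed between P8 and 5 weeks, 17.1% of them higher rather than 49.4%, and 379 passed between 5 and 9 weeks, 89.4% of them higher rather than 27.7%. The median of all genes moved to -0.50 and 0.42 under this scaling. The values of single genes below use TMM factors.

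Of 17 myelin genes tested, 15 were higher at 5 weeks than in the P8 libraries labelled cervical (median 2.40, or 1.92 with library totals). Between 5 and 9 weeks 11 were lower and none higher (median -1.40). With library totals 9 were lower and 1 higher between 5 and 9 weeks (median -0.995). *Mobp* stood at 6386 and 6129 CPM at 5 weeks and fell by 3.86-fold to 9 weeks (log2 fold change -1.95, SE 0.25, adjusted p = 2.14e-09), *Mag* at 1181 and 1559.9 CPM (log2 fold change -1.40, SE 0.22, adjusted p = 1.08e-06) and *Trf* at 1858 and 1985 CPM (log2 fold change -1.75, SE 0.22, adjusted p = 1.22e-09). Their 9-week levels lay between those of the P8 libraries labelled cervical and the 5-week libraries. *Hmgcs1* was at 693 and 658 CPM at 5 weeks, not apart from P8 by the test (log2 fold change 0.32, SE 0.23, adjusted p = 0.324), and fell from 5 to 9 weeks (log2 fold change -2.15, SE 0.24, adjusted p = 3.42e-11). *Cyp51* went from 137 and 134 CPM (log2 fold change -1.49, SE 0.41, adjusted p = 0.0173) and *Gpr17* from 77.0 and 87.3 CPM (-3.99, adjusted p = 3.78e-05). Of 30 immature neuron genes 21 were lower and 2 higher at 5 weeks than at P8 (median -1.69), and 3 were lower at 9 than at 5 weeks, where library totals gave 1 lower and 1 higher. The mitochondrial genes, all of them shallow values here, rose in 12 of 12 cases to 5 weeks (median 1.35) and fell in 11 of 12 to 9 weeks (median -1.18), with 10 rising and 4 falling under library totals.

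Astrocyte genes changed in both directions. Of 28 genes 24 were tested, 7 rose and 8 fell (median -0.14), beside 12.1% and 14.0% of all genes. Over all libraries 4 of 28 rose and 7 fell. With the P8 libraries labelled medulla 5 of 22 rose and 14 fell (median -0.63), beside 24.8% and 28.8% of all genes. With the 3 shallow 9-week medulla libraries none of 24 rose and 3 fell (median -0.61). With their replicates 1 and 3 alone 4 of 23 rose and 11 fell (median -0.43). The glutamate transporter gene *Slc1a3*, which encodes GLAST, the early astrocyte carrier, was at 507 and 508 CPM at P8 and 113, 113, 122, 112 and 117 CPM at 9 weeks (log2 fold change -2.11, SE 0.24, adjusted p = 2.53e-08). *Slc6a11*, the GABA transporter GAT3, went from 448 and 391 CPM to 60.2, 134, 30.5, 152 and 191 CPM (log2 fold change -2.51, SE 0.31, adjusted p = 8.25e-08), and the water channel gene *Aqp4* from 554 and 587 CPM to 165, 77.8, 122, 244 and 232 CPM (log2 fold change -2.21, SE 0.25, adjusted p = 2.27e-08). All 3 also fell against the P8 libraries labelled medulla, with log2 fold changes of -1.63, -2.94 and -2.42. *Apoe*, the apolipoprotein that astrocytes secrete, fell by less (log2 fold change -0.80, SE 0.21, adjusted p = 0.0034).

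*S100b*, a calcium-binding protein of mature astrocytes and oligodendrocytes, rose from 94.4 and 93.9 CPM to 459, 509.6, 469, 566 and 545 CPM (log2 fold change 2.37, SE 0.26, adjusted p = 7.24e-09), and did so against the other P8 pair (1.70). *Aldoc*, the aldolase of astrocytes, rose from 569 and 399 CPM to 842, 963, 853, 849 and 875 CPM (log2 fold change 0.85, SE 0.21, adjusted p = 0.00273) but not against the other pair (0.09, adjusted p = 0.624). *Gfap*, the intermediate filament of astrocytes, was at 271 and 477 CPM in the P8 libraries labelled cervical, 1316 and 1741 CPM in those labelled medulla and 564, 432, 311, 465 and 478 CPM at 9 weeks. It did not pass by the first pair (log2 fold change 0.29, SE 0.26, adjusted p = 0.449) and fell by the second (-1.89, adjusted p = 2.83e-09), and WT cord at 9 weeks was at 2186 ± 800.4 CPM (SD, n = 5). *Slc1a2*, the main glutamate transporter of adult astrocytes, was at 363 and 274 CPM and 211, 212, 262, 728 and 777 CPM, low in the shallow and high in the deep 9-week libraries, and did not pass (log2 fold change -0.49, SE 0.23, adjusted p = 0.118). *Slc6a9*, the glycine transporter GlyT1, went from 171 and 266 CPM to 135, 212, 85.3, 129 and 128 CPM without passing (log2 fold change -0.51, SE 0.31, adjusted p = 0.243).

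More neuronal channel genes rose than fell. Of 23 genes of nodes and fast firing 22 were tested, 10 rose and 2 fell (median 0.54). Of all genes 12.1% rose and 14.0% fell. Over all libraries 10 of 22 rose and 1 fell (median 0.86). With the P8 libraries labelled medulla 11 of 20 rose and 5 fell (median 0.53), beside 24.8% and 28.8% of all genes. *Scn4b*, the sodium channel subunit behind resurgent current, lies at chr9:45138624-45154155 and went from 5.90 and 23.5 CPM to 346, 262, 262, 458 and 405 CPM (log2 fold change 4.69, SE 0.44, adjusted p = 3.28e-10). *Kcna1*, the juxtaparanodal potassium channel Kv1.1, rose from 79.6 and 31.3 CPM to 444, 326, 317, 568 and 543 CPM (log2 fold change 2.50, SE 0.30, adjusted p = 5.89e-08), and its subunit gene *Kcnab2* from 73.7 and 46.9 CPM to 421, 269, 249.8, 383 and 398 CPM (log2 fold change 2.27, SE 0.31, adjusted p = 6.55e-07). None of these 3 genes had a 9-week library that overlapped a P8 library of either label, and over all 7 libraries their log2 fold changes were 4.95, 2.86 and 2.44, each with an adjusted p under 0.05. *Nfasc*, which encodes the neurofascins of nodes and paranodes, fell (log2 fold change -0.96, SE 0.22, adjusted p = 8.94e-04), from 608 and 696 CPM to 384, 318, 292, 424 and 439.8 CPM.

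Among 23 genes of the synaptic vesicle 20 were tested, 5 rose and 2 fell, beside 12.1% and 14.0% of all genes, and the median was 0.09. Against the P8 libraries labelled medulla 3 of 18 rose and 4 fell, beside 24.8% and 28.8% of all genes. *Snap25*, a SNARE protein of vesicle fusion at chr2:136713439-136782428, rose: it was at 472 and 297 CPM at P8, 2046 and 2055 CPM at 5 weeks and 2331, 2194, 2169, 2352 and 2386 CPM at 9 weeks (log2 fold change 2.51, SE 0.24, adjusted p = 3.28e-10), with a log2 fold change of 2.55 over all libraries (adjusted p = 4.08e-05). *Vamp1*, the vesicle SNARE of motor and sensory terminals, rose from 416 and 266 CPM to 1662, 1592, 1371, 1231 and 1127 CPM (log2 fold change 2.14, SE 0.23, adjusted p = 7.24e-09) and *Cplx1*, complexin, from 457 and 305 CPM to 1083, 821, 774, 856 and 863 CPM (log2 fold change 1.20, SE 0.22, adjusted p = 1.14e-04). *Syt1*, the calcium sensor of forebrain synapses, went the other way, from 283 and 235 CPM to 60.2, 77.8, 116, 149.8 and 202 CPM (log2 fold change -1.59, SE 0.29, adjusted p = 6.91e-05). All 4 kept their call with the P8 libraries labelled medulla (2.12, 1.26, 0.72 and -0.87).

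Of 13 inhibitory genes tested 3 rose and 2 fell, beside 12.1% and 14.0% of all genes. With the P8 libraries labelled medulla 3 of 8 rose and 1 fell, beside 24.8% and 28.8% of all genes. With the 9-week libraries labelled medulla none of 12 passed, or 1 as lower without their replicate 2. *Glra1*, the adult alpha subunit of the glycine receptor, rose from 17.7 and 23.5 CPM to 128, 77.8, 128, 92.7 and 111 CPM (log2 fold change 2.52, SE 0.47, adjusted p = 1.06e-04), on P8 values near the limit of counting, and the chloride importer gene *Slc12a2* from 53.1 and 93.9 CPM to 211, 163, 219, 319.6 and 299 CPM (log2 fold change 1.62, SE 0.33, adjusted p = 2.86e-04). *Gad2*, a GABA-synthesising enzyme, fell in the shallow libraries (log2 fold change -1.04, SE 0.38, adjusted p = 0.0379). It stood at 37.6, 42.5, 73.1, 90.6 and 114 CPM against 115 and 102 CPM at P8, with 1 deep 9-week library in the P8 range and the other below it. Of 7 excitatory receptor genes tested, the juvenile NMDA receptor subunits *Grin3a* (log2 fold change -1.43, SE 0.44, adjusted p = 0.0148) and *Grin2d* (log2 fold change -1.08, SE 0.40, adjusted p = 0.042) fell and none rose. Of all genes 14.0% fell. With the other P8 pair 2 of 3 fell, beside 28.8% of all genes.

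Among genes of the mature axon *Nefh*, the heavy neurofilament, rose from 227 and 227 CPM to 1090.5, 658, 627, 818 and 635 CPM (log2 fold change 1.81, SE 0.25, adjusted p = 9.10e-07) and against the other P8 pair (0.46, adjusted p = 0.0467). *Nefm*, the medium neurofilament, rose by the cervical-labelled pair (log2 fold change 1.04, SE 0.25, adjusted p = 0.00216) and fell by the medulla-labelled pair (-0.52, adjusted p = 0.0258), whose libraries were at 1901 and 2236 CPM. *Kif5a*, a kinesin of axonal transport, rose a little (log2 fold change 0.61, SE 0.22, adjusted p = 0.0404), and *Map6*, a stabiliser of microtubules, fell (log2 fold change -1.42, SE 0.32, adjusted p = 0.00106). The list of 16 tested genes held 4 that rose and 1 that fell by the first pair, beside 12.1% and 14.0% of all genes. By the second pair it held 3 and 6, beside 24.8% and 28.8% of all genes.

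Of 21 tested genes of glycolysis and creatine metabolism 8 rose and 1 fell (median 0.46), beside 12.1% and 14.0% of all genes. Over all libraries 6 of 22 rose and 1 fell. With the other P8 pair 9 of 20 rose and 3 fell, beside 24.8% and 28.8% of all genes. *Pkm*, pyruvate kinase, went from 422 and 415 CPM at P8 to 1594, 1564, 1279, 1399.8 and 1319 CPM (log2 fold change 1.83, SE 0.23, adjusted p = 1.24e-07), *Mdh1*, of the malate-aspartate shuttle, from 309.7 and 235 CPM to 624, 602, 524, 788 and 690.1 CPM (log2 fold change 1.07, SE 0.22, adjusted p = 2.96e-04), and *Aldoa* from 602 and 391 CPM to 1060.4, 835, 1097, 1114 and 1066 CPM (log2 fold change 0.99, SE 0.22, adjusted p = 8.98e-04). The exception was *Pfkp*, the platelet-type phosphofructokinase abundant in immature brain, which fell from 457 and 399 CPM to 196, 255, 189, 281 and 284 CPM (log2 fold change -1.01, SE 0.23, adjusted p = 9.55e-04). Of 24 nuclear genes of oxidative phosphorylation tested 3 rose, beside 12.1% of all genes, and none fell. Among the 3 were *Cox4i1* (log2 fold change 0.93, SE 0.25, adjusted p = 0.00588) and *Sdha* (log2 fold change 0.76, SE 0.24, adjusted p = 0.0174). With the other P8 pair 5 of 21 rose and 2 fell, beside 24.8% and 28.8% of all genes. Of 12 mitochondrially encoded genes tested among shallow libraries 1 passed, *COX1*, as higher (log2 fold change 0.57, SE 0.21, adjusted p = 0.0435), and their median was 0.18. With the 9-week libraries labelled medulla their median was 2.39, and none of 13 passed, nor had an unadjusted p under 0.05. This median rests on replicate 2, and without it the median was 0.14 and 1 of 12 passed.

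Of 13 chromatin genes tested 8 fell and none rose (median -0.91), where 14.0% of all genes fell. Over all libraries 8 of 20 fell (median -1.14). With the P8 libraries labelled medulla 3 of 8 fell (median -0.31), where 28.8% of all genes did, and with the 9-week libraries labelled medulla 1 of 13 fell, or 5 of 14 without their replicate 2 (median -0.99). *Dnmt3a*, the de novo DNA methyltransferase that is abundant in neurons after birth, lies at chr12:3801559-3914443 and went from 531 and 493 CPM at P8 to 90.2, 113, 146, 118 and 124 CPM at 9 weeks (log2 fold change -2.10, SE 0.25, adjusted p = 3.44e-08), and its P8 libraries labelled medulla were as high (456 and 485 CPM, log2 fold change -2.14). *Dnmt1*, the maintenance enzyme (log2 fold change -1.56, SE 0.43, adjusted p = 0.00673), and *H3f3a*, a replacement histone with processed copies in the genome (log2 fold change -1.71, SE 0.44, adjusted p = 0.00332), also fell. Of 18 genes of neuronal splicing and RNA binding 8 fell and 1 rose (median -0.64), beside 14.0% and 12.1% of all genes. With the other P8 pair 8 of 12 fell and 2 rose (median -0.37), beside 28.8% and 24.8% of all genes. *Hnrnpa2b1*, an RNA carrier in oligodendrocytes and neurons, went from 696 and 923 CPM to 286, 205, 384, 515 and 479.6 CPM (log2 fold change -1.44, SE 0.23, adjusted p = 1.54e-05), lower in the shallow than in the deep 9-week libraries. *Celf2* fell in the shallow libraries (log2 fold change -1.59, SE 0.41, adjusted p = 0.00356), with 45.1, 28.3, 36.6, 95.8 and 102 CPM at 9 weeks against 103 and 133 CPM. *Mbnl2*, a splicing regulator of the postnatal brain, rose from 64.9 and 62.6 CPM to 226, 184, 171, 268 and 276 CPM (log2 fold change 1.61, SE 0.31, adjusted p = 1.89e-04), and no 9-week library overlapped a P8 library.

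Of 5 proliferation genes with enough counts 3 fell, the cyclin gene *Ccnd2* (log2 fold change -1.71, SE 0.48, adjusted p = 0.00688) and *Stmn1* and *Tubb5* above, and in the all-library comparison 12 of 27 fell and none rose. Of 6 imprinted and growth genes tested 3 fell and 2 rose, beside 14.0% and 12.1% of all genes. With the other P8 pair 2 of 5 fell and 2 rose, beside 28.8% and 24.8% of all genes. *Igf2*, insulin-like growth factor 2 of the meninges and vessels, was at 112 and 305 CPM at P8 and 22.6, 7.08, 12.2, 16.2 and 13.6 CPM at 9 weeks (log2 fold change -3.64, SE 0.55, adjusted p = 4.13e-06), whereas WT cord at 9 weeks ranged widely, at 291 ± 292 CPM (SD, n = 5). *Ndn* fell in the shallow libraries (log2 fold change -1.47, SE 0.32, adjusted p = 6.63e-04), from 268 and 117 CPM to 52.6, 77.8, 91.4, 170.0 and 172 CPM. *Impact*, a regulator of translation, rose from 129.8 and 93.9 CPM to 203, 226, 323, 406 and 431 CPM (log2 fold change 1.14, SE 0.28, adjusted p = 0.00211), and *Peg3* rose by less (log2 fold change 0.77, SE 0.21, adjusted p = 0.00667).

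Glucocorticoid-induced and clock output genes rose in 6 of 11 cases tested, with none lower (median 1.06), where 12.1% of all genes rose. Over all libraries 7 of 17 rose (median 1.17). With the P8 libraries labelled medulla 9 of 10 rose (median 1.04), beside 24.8% of all genes. With the 9-week libraries labelled medulla none of 10 passed, at a median of 1.21, and 6 had an unadjusted p under 0.05. Without their replicate 2 5 of 9 rose (median 1.29). *Sgk1*, the serum- and glucocorticoid-induced kinase, went from 29.5 and 62.6 CPM at P8 to 218, 142, 177, 250.1 and 239 CPM (log2 fold change 2.20, SE 0.38, adjusted p = 3.33e-05). *Per1* rose from 23.6 and 31.3 CPM to 90.2, 127, 54.8, 74.5 and 94.3 CPM (log2 fold change 1.80, SE 0.49, adjusted p = 0.00545), *Nr1d2*, a repressor of the clock, from 26.5 and 39.1 CPM to 150.4, 84.9, 134, 156 and 157 CPM (log2 fold change 2.04, SE 0.42, adjusted p = 3.41e-04) and *Tef*, a clock output factor, from 118 and 70.4 CPM to 173, 262, 195, 224 and 254 CPM (log2 fold change 1.06, SE 0.29, adjusted p = 0.0057). The hour at which tissue was taken is not given in the sources used here.

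Several of the genes with the largest rises stood in none of the lists above. *Apod*, an apolipoprotein of oligodendrocytes and perivascular cells at chr16:31296192-31314808, rose from 26.5 and 62.6 CPM to 1376, 1366, 1291, 1309 and 1239.7 CPM (log2 fold change 5.17, SE 0.33, adjusted p = 1.44e-14), and its P8 libraries labelled medulla were at 132 and 181 CPM (2.99). *Fth1*, the ferritin heavy chain, which has processed copies that can share reads, went from 398 and 532 CPM to 5843, 5655, 3095, 3249 and 2930.2 CPM (log2 fold change 3.41, SE 0.29, adjusted p = 1.89e-11). *Ptgds*, prostaglandin D synthase of oligodendrocytes and meninges, went from 14.7 and 93.9 CPM to 414, 566, 420.3, 691 and 471 CPM (log2 fold change 3.61, SE 0.38, adjusted p = 3.93e-09). The oligodendrocyte genes *Anln* (log2 fold change 3.83, SE 0.45, adjusted p = 3.09e-08), *Gpd1* (log2 fold change 3.74, SE 0.45, adjusted p = 6.34e-08) and *Tmem63a* (log2 fold change 3.41, SE 0.44, adjusted p = 3.01e-07) and the neuronal genes *Cpeb1* (log2 fold change 3.40, SE 0.54, adjusted p = 8.69e-06) and *Sec14l5* (log2 fold change 3.19, SE 0.56, adjusted p = 4.70e-05) rose as well. *Fgf1*, a growth factor of motor and sensory neurons, was at 14.7 and 23.5 CPM and 338, 205, 231, 329 and 307 CPM (log2 fold change 3.88, SE 0.41, adjusted p = 3.93e-09).

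**Figure D4:**
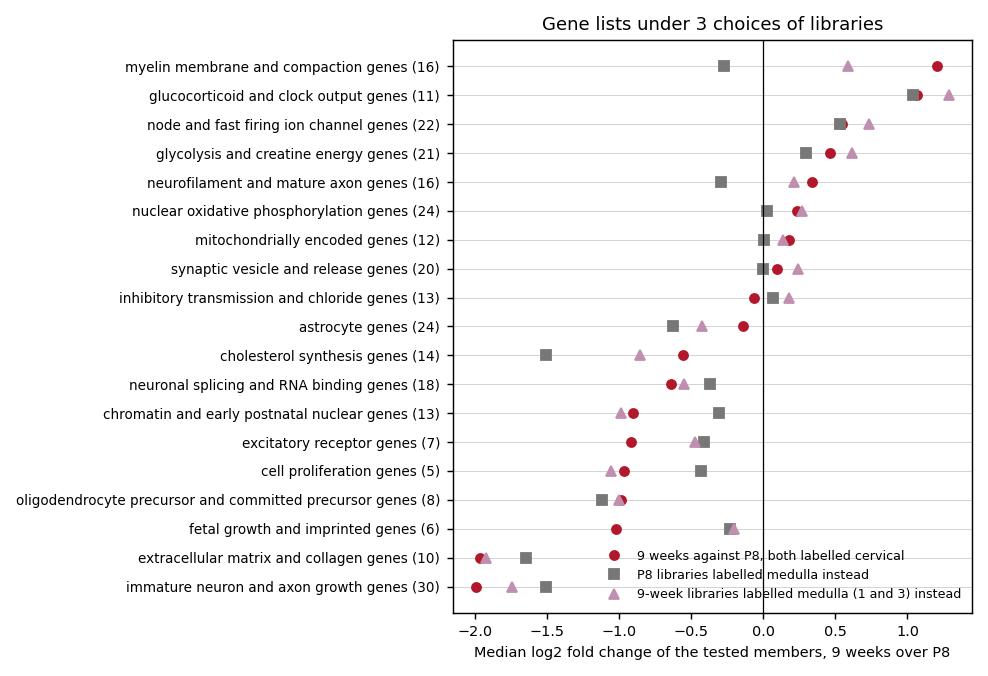
Median log2 fold change of 9 weeks over P8 (horizontal axis) of the tested members of each gene list (vertical axis, with the number tested in the equal-depth comparison) under 3 choices of libraries: both ages labelled cervical (circles), the P8 libraries labelled medulla (squares) and the 9-week libraries labelled medulla, replicates 1 and 3 alone (triangles). The immature neuron list lies at -1.99, -1.51 and -1.74, while the myelin list lies at 1.20, -0.27 and 0.59.

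*Atxn7*, the gene that carries the expansion, was near the limit of counting, at 20.6 and 39.1 CPM at P8 and 60.2, 56.6, 24.4, 46.3 and 56.0 CPM at 9 weeks. It was not tested at equal depth and did not pass in the all-library comparison (log2 fold change 0.83, SE 0.50, adjusted p = 0.414), and its level does not check the allele. Of 22 genes of ataxin-7 and its SAGA coactivator complex 3 had enough counts and none passed, among them the deubiquitinase gene *Usp22* (log2 fold change -0.53, SE 0.26, adjusted p = 0.136), at 259.5 and 258 CPM and 211, 205, 122, 205 and 223 CPM, and the scaffold gene *Trrap* (log2 fold change -0.29, SE 0.25, adjusted p = 0.434). An unadjusted p under 0.05 was found in 2 of them. Over all libraries none of 21 passed and 3 had such a p, and against the P8 libraries labelled medulla *Usp22* (-0.58, adjusted p = 0.00132) and *Trrap* (-0.43, adjusted p = 0.0124) fell.

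Markers of some other cells differed between the P8 libraries labelled cervical and the 9-week libraries. The summed level of 10 ependymal and choroid plexus genes was between 758 and 6235 CPM in the P8 libraries labelled cervical, almost all of it *Ttr*, between 28.5 and 37.9 CPM in those labelled medulla and between 29.3 and 56.6 CPM at 9 weeks. That of 8 red blood cell genes was between 109.5 and 298 CPM and between 0 and 52.0 CPM. *Ttr* itself had 1 count in the shallow 9-week libraries, and a ratio of 0.00105 (95% counting interval 2.65e-05 to 0.00586). Microglia genes summed to between 209 and 250.3 CPM at P8 and between 134 and 298 CPM at 9 weeks, ranges that overlap. Of 4 *Hox* genes tested *Hoxb8* rose by the cervical-labelled pair (log2 fold change 2.07, SE 0.41, adjusted p = 2.02e-04), and *Hoxa5* and *Hoxb5*, genes of more rostral levels, fell (for *Hoxb5*, log2 fold change -1.36, SE 0.43, adjusted p = 0.0164). The part of these cells and of tissue position in the other results was not tested.

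Whether the change with age differed from that of WT mice was tested with 1 WT library at P8, a deep one, set against shallow SCA7 libraries. The SCA7 change was taken from shallow libraries and the WT change from deep ones, which at 9 weeks are WT replicates 1 and 5. Genotype and depth therefore cannot be separated at either age. The WT P8 library, too, was labelled cervical and had *Hoxc8* at 0.0217 CPM. Of 3077 genes 1 passed (0.0325%), and 207 had an unadjusted p under 0.05. DESeq2 called 19. The gene was *Ptn*, with a difference of -3.11 on the log2 scale, a larger fall in SCA7 (SE 0.50, adjusted p = 0.0323). WT *Ptn* was at 560.3 CPM at P8 and 160.5 ± 36.8 CPM at 9 weeks (SD, n = 5), and SCA7 *Ptn* at 51.7 ± 43.1 CPM at 9 weeks (SD, n = 5). These 9-week means hold libraries of both depths, while the difference of -3.11 was taken from shallow SCA7 and deep WT libraries alone. With the P8 libraries labelled medulla in both genotypes the difference was -0.61. There the SCA7 change was taken from deep libraries, with replicate 1 alone at P8, so tissue label and depth changed together. For *Tubb2b* the difference was -1.51 (SE 0.44, adjusted p = 0.452) and for *Snap25* 0.77 (SE 0.49, adjusted p = 0.833). No gene passed when any 1 of the 5 SCA7 9-week libraries or P8 replicate 2 was left out, without a term for depth, or with library totals, while 203 passed without WT 9-week replicate 5.

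Whether it differed from that of SCA7 medulla was tested with a block for each mouse and no term for depth. In the mouse of P8 replicate 1 the cervical library is shallow and the medulla library deep, so tissue and depth cannot be told apart there. Of 3118 genes 35 passed (1.12%), 17 with a higher value in the cord (0.545%) and 18 with a lower one (0.577%). Among them *Gm2423*, *LOC102640133*, *Gm15772* and *Gm5879* were also over 10-fold lower in deep than in shallow 9-week libraries of the cord. Without 9-week medulla replicate 2, in which mitochondrial transcripts were 60.7% of the counts, 275 passed. With the tissue labels of the P8 libraries exchanged 3 passed, or 67 without that replicate. *Gfap* (3.31, adjusted p = 3.20e-04), *Trf* (2.53, adjusted p = 0.00318) and *Mag* (1.92, adjusted p = 0.0123) had a positive difference, cord over medulla, as labelled. A positive difference does not say that the gene rose in both tissues. Each had a negative difference that did not pass when the labels were exchanged (-0.88, -1.44 and -0.92). With the labels exchanged and medulla replicate 2 left out *Trf* (-1.54, adjusted p = 0.0137) and *Mag* (-1.03, adjusted p = 0.0497) passed as lower and *Gfap* did not (-0.76, adjusted p = 0.122). *Igf2* had a negative difference under both readings of the labels, of -3.60 (adjusted p = 3.20e-04) as labelled and of -2.78 (adjusted p = 0.00376) with the labels exchanged. *Ttr* passed under both with opposite signs (-14.47 as labelled and 5.98, adjusted p = 0.00376, exchanged).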

How the data were processed

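RNA of SCA7 and WT mouse cervical cord and medulla had been sequenced by the authors, and a file of whole-number counts by gene symbol, not normalized, was deposited for every library. Their methods give mapping to GRCm38v73 with uniquely mapped reads kept, and the labels give mm10. The aligner and the counting tool are not given in the sources used here. Each table holds 35976 symbols, of which 32501 matched RefSeq entries (GRCm38.p6), the source of positions and promoters. Groups came from the titles. Pairs of shallow libraries differed by more than counting noise (chi-square over its degrees of freedom was 1.23 or more).

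From the deposited counts, CPM and log2 fold changes were computed with TMM scaling and tested by quasi-likelihood (edgeR 4.0.16, Benjamini-Hochberg adjustment, threshold 0.05). Used beside it were R 4.3.3, limma 3.58.1, DESeq2 1.42.0, statmod 1.5.0 and jsonlite 2.0.0. The 5-week and P8 comparisons used shallow libraries with a mean of at least 10 counts. The differences between genotypes and tissues were interaction terms. Named genes are the 12 higher and 12 lower genes with the largest change that passed both comparisons without overlap of the libraries, up to 4 members of each list by p and 4 by level, *Atxn7*, genes the study names, and leading genes of the other tests. *Pllp*, *Hoxa5*, *Insig1*, *Hapln4*, *Ermn*, *Ccnd2* and *COX1* were named after their values were seen. Members and lists were chosen with earlier results of these data known. Counts were also simulated at the depths of the libraries, with a dispersion set at 0.05 rather than estimated from these data. For the equal-depth comparison, over 3645 genes, 33% of genes changed by 1 on the log2 scale and 93% of those changed by 2 were recovered. Of the simulated calls 3.08% were wrong. For the all-library comparison, over 18613 genes, 1% and 32% were recovered. These shares hold for the simulated counts and are not error rates of the real calls. Alternatives were DESeq2, its size factors, library totals, other filters, limma-voom with sample weights, thinned deep libraries, the replicate number as a block, leaving out each library, and other choices of P8 or 9-week libraries. Some named genes are not reported here.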

Additional observations from a re-analysis of the deposited data

Results flagged for a closer look

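In 8 of the 101 genes examined 1 library of the 9-week SCA7 cervical cord lay far from the other 4 by Dixon's ratio, and chance flags about 1 in 20 groups. High values were those of *Ttr* in replicate 3 (6.09 CPM), *Aldoc* in replicate 2 (963 CPM), *Cplx1* in replicate 1 (1080 CPM) and *Nefm* in replicate 1 (2660 CPM). Low values were those of *Nid1* in replicate 2 (0 CPM), *Cyp51* in replicate 3 (24.4 CPM), *Aldoa* in replicate 2 (835 CPM) and *Usp22* in replicate 3 (122 CPM). All of these libraries are shallow.

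Between SCA7 and WT cord the age change of *Ptn* differed by -3.11 on the log2 scale, taken from shallow SCA7 and deep WT libraries. Between SCA7 cord and medulla the age change differed in 35 genes. Of the genes named in the text these were *Gfap* (3.31), *Trf* (2.53), *Apod* (2.45), *Mal* (2.4), *Ugt8a* (2.12), *Slc1a2* (2.1) and *Mag* (1.92), with a larger value in the cord, and *Ttr* (-14.47), *Igf2* (-3.6), *Nnat* (-2.12) and *Stmn1* (-1.75), with a smaller one, each by edgeR with the mouse as a block. With the tissue labels of the P8 libraries exchanged the values of *Gfap*, *Trf*, *Apod*, *Mal*, *Ugt8a*, *Slc1a2* and *Mag* were -0.88, -1.44, -1.53, -1.58, -1.10, -0.55 and -0.92, none of which passed. Of the other 4 genes *Igf2* kept its direction with an adjusted p under 0.05 (-2.78, adjusted p = 0.00376), *Ttr* passed with the opposite sign (5.98, adjusted p = 0.00376), and *Nnat* (-0.88) and *Stmn1* (1.31) did not pass. With the labels exchanged and 9-week medulla replicate 2 left out, *Trf* (-1.54), *Mal* (-1.61), *Apod* (-1.57), *Ugt8a* (-1.20), *Mag* (-1.03), *Nnat* (-0.74), *Igf2* (-2.80), *Ttr* (6.02) and *Stmn1* (1.44) had an adjusted p under 0.05.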

How the results depend on the processing

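The equal-depth count of 952 genes (442 higher, 510 lower) became 353 (168, 185) with DESeq2, 436 (211, 225) with at least 10 counts in every library, 377 (183, 194) with a mean of at least 30 counts 136 (44, 92) with the 9-week libraries labelled medulla and 783 (379, 404) without their replicate 2. Leaving out 1 library gave 404 to 869 genes (185 to 407 higher, 219 to 462 lower), the fewest without P8 replicate 1. Of 94 named genes called, DESeq2 kept 76, its size factors 94, library totals 93, the P8 libraries labelled medulla 68 of 76 tested and the 9-week libraries labelled medulla 42 of 92, or 75 of 86 without their replicate 2.

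The all-library count of 1139 (492, 647) became 303 (144, 159) with at least 10 counts in every library, 729 (254 higher) without a filter, 3268 (1131, 2137) with limma-voom, 730 (356 lower) over genes with a mean of 10 in shallow libraries and 3755 (2037, 1718) with the deep 9-week libraries alone. Leaving out 1 library gave 198 to 1782 (75 to 838, 123 to 944), with 198 without P8 replicate 1, 468 without P8 replicate 2 and 1782 without 9-week replicate 3. Replicate numbers did not pair the libraries (correlations 0.0012 and -0.0049), and the replicate block gave 671 genes (325 lower) here, 821 at equal depth and 51 between 5 and 9 weeks.

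From P8 to 5 weeks 801 became 351 with DESeq2, 339 with 10 counts in every library and 345 to 849 without 1 library. From 5 to 9 weeks 101 became 44 with DESeq2, 379 with library totals and 43 to 115 without 1 library. The count of the difference between genotypes was 19 with DESeq2, 0 with library totals, 2 with 10 counts in every library, 0 without a term for depth, 0 with the P8 libraries labelled medulla, and 0 to 203 without 1 library, with 203 without WT 9-week replicate 5. It could not be fitted without the 1 WT P8 library. That of the difference between tissues was 245 with DESeq2, 1 with library totals, 21 with 10 counts in every library, 7 without the mouse block, 3 with exchanged labels, 67 with exchanged labels and without 9-week medulla replicate 2, and 3 to 299 without 1 library, with 197 and 200 without P8 cervical or medulla replicate 2 and 299 and 275 without 9-week cervical or medulla replicate 2.

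Direction turned in the equal-depth comparison with the P8 libraries labelled medulla for *Mbp* (-0.56), *Mag* (-0.69), *Mobp* (-0.39), *Mal* (-0.1), *Gfap* (-1.89), *Nefm* (-0.52) and *Hoxb8* (-1.02), and for *Gfap* without P8 replicate 1 (-0.34, against 0.75 without replicate 2) and with the 9-week libraries labelled medulla (-0.84, or -0.94 without their replicate 2). *Gad2* turned (0.14) in the last of these. In the all-library comparison it turned for *Gfap* (-0.1) and *Ndn* (0.05) without P8 replicate 1 (0.66 and -1.22 without replicate 2) and for *Slc1a2* (-0.59) with the replicate block. Apart from the alternatives given, the cause was not tested. Depth limits genes under 28.3 CPM in the shallowest library.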
